A study of Mus musculus with 12 samples.

Results

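The 10 genes described here encode WNT ligands (Wnt4 and Wnt5a), secreted WNT antagonists (Sfrp1, Sfrp2, Frzb, Wif1, Dkk2 and Dkk3) and genes that report or carry out the transcriptional response to WNT (Axin2 and Lef1). They were chosen by gene symbol in the annotation of the array, 10 of 19938 genes measured, and for each the brightest probe set on average was taken, with no gene left out for being dim. RNA came from mouse embryonic fibroblasts, connective tissue cells cultured from embryos, and was hybridised to 12 Affymetrix arrays, 3 in each of 4 groups. The groups were MLL1 knockout cells and wild-type cells, each collected 18 h and 30 h after a serum shock (labelled CT18 and CT30), a 2 h pulse of 50% horse serum that sets the circadian clocks of cultured cells to a common phase. All 4 groups were grown with fetal bovine and newborn calf serum and received the shock, so no group was left unshocked. MLL1 is a histone H3 lysine 4 methyltransferase encoded by Kmt2a. The labels name neither the allele nor a number of lines or embryos, and they do not tell whether replicates were grown as separate cultures. The spread that the p-values rest on may thus be technical.

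WNT proteins are secreted, lipid-modified ligands that bind Frizzled receptors together with the co-receptors LRP5 and LRP6. In the canonical branch this stops a complex built on AXIN from destroying beta-catenin, which then enters the nucleus and activates target genes with TCF/LEF factors. Other branches signal without beta-catenin through receptors such as ROR2 and through planar cell polarity proteins. Secreted antagonists act outside the cell: the SFRP family and WIF1 bind the ligands themselves, while Dickkopf proteins such as DKK1 and DKK2 bind LRP5 and LRP6. In embryonic mesenchyme these signals are known for patterning limbs, skeleton and connective tissue.

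The median intensity of the 12 arrays lay between 273.3 and 311.8, and arrays of 1 group correlated at 0.984 to 0.996 across the genes at or above the dim threshold, against 0.771 to 0.831 between arrays of different genotypes. A gene is called dim where its mean over all arrays is under the 30th percentile of genes, an intensity of about 175. With 3 arrays a group, precision is limited throughout. Kmt2a, the targeted gene, had 2120.2, 2174 and 1959.7 in knockout at 18 h, against 2265, 2824 and 2099.7 in wild type, with overlapping arrays and a log2 fold change of -0.19 (adjusted p = 0.132). At 30 h it had 1338, 1367 and 1584 in knockout, against 2129, 2155 and 2069 in wild type, with no overlap and a log2 fold change of -0.57 (adjusted p = 0.000109). Which part of the gene was disrupted, and whether its probes lie there, is not known here, so Kmt2a is no check on the labels. All 8 fibroblast markers lay above the dim threshold. Of these, 3 were called higher and 4 lower in knockout at each time, where 45.5% of all genes were called at 18 h and 39.2% at 30 h. The 4 lower were Col3a1, Pdgfra, Pdgfrb and Vim. The largest fall was that of Pdgfra, with 395.4 ± 42.9 in knockout and 3811 ± 212 in wild type at 18 h (SD, n = 3 each). Vim was lower by log2 fold changes of only -0.13 and -0.14, and Col1a1 was higher at 0.52 and 0.37.

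Between the genotypes, Axin2 and Dkk2 were higher and Sfrp2 and Lef1 lower in knockout at both times, and Wnt5a was higher at both. The first 2 and Wnt5a had log2 fold changes between 0.89 and 3.71, and Sfrp2 had -4.72 at 18 h and -4.12 at 30 h. Sfrp1 was called in opposite directions at the 2 times. Dkk3 was called lower at 18 h, and Wnt4, Frzb and Wif1 were not called at either time. Values were tested as log2(intensity + 16) with limma over all 12 arrays, and a gene was called where the adjusted p, over all 19938 genes, was under 0.05. Fold changes are given on that scale, where the added 16 makes those of dim genes too small.

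At 18 h 4 of the 10 genes were called higher in knockout and 3 lower, where 45.5% of all 19938 genes were called, 20.1% higher and 25.4% lower. Knockout and wild-type arrays had no overlap for 9 of the 10 genes, 5 higher and 4 lower, where 52.0% of all genes did not overlap. At 30 h 3 were called higher and 3 lower, where 39.2% of all genes were called, 18.2% higher and 21.0% lower, and 6 did not overlap, where 48.8% of all genes did not. The median log2 fold change of the 10 genes was 0.03 at 18 h and 0.02 at 30 h, beside -0.01 and 0.03 over all genes. The 10 genes were thus spread over both sides of 0.

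**Figure D1:**
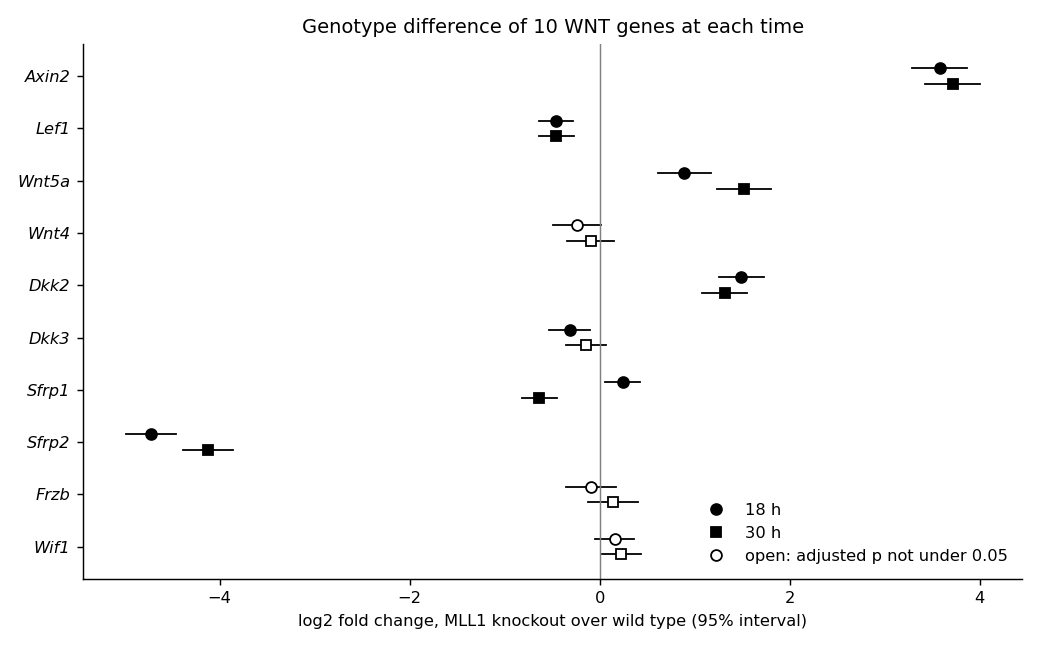
The log2 fold change of MLL1 knockout over wild type is plotted for each of the 10 genes, with circles for 18 h, squares for 30 h, lines for the 95% interval and open symbols where the adjusted p was not under 0.05. Axin2 lies at 3.58 and 3.71 and Sfrp2 at -4.72 and -4.12, while Sfrp1 lies on the right at 18 h (0.24) and on the left at 30 h (-0.64).

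Axin2 encodes a scaffold of the beta-catenin destruction complex and is itself a transcriptional target of beta-catenin, so that it acts as a negative feedback on the pathway. At 18 h its intensity was 889.8, 735 and 677 on the knockout arrays, against 59.7, 37.1 and 52.8 on the wild-type arrays. At 30 h it was 929, 1012 and 961 on the knockout arrays, against 72.4, 52.7 and 53.3 on the wild-type arrays. Every knockout array was far above every wild-type array at both times, and the wild-type arrays all lay under the dim threshold. The log2 fold change was 3.58 (SE 0.14, adjusted p = 1.6e-13) at 18 h and 3.71 (SE 0.14, adjusted p = 1.06e-13) at 30 h, about 11.9-fold and 13.1-fold. Only 106 of 19938 genes had a higher fold change at 18 h and 58 at 30 h.

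Lef1 encodes a DNA-binding partner of beta-catenin. At 18 h it had 333, 370.0 and 340.1 in knockout, against 492, 500.0 and 462 in wild type. The 30 h arrays had 289, 273 and 301 in knockout, against 424, 398 and 379 in wild type. The groups did not overlap at either time, and Lef1 was lower in knockout by a log2 fold change of -0.46 at both times (SE 0.086, adjusted p = 0.000198 at 18 h and 0.000285 at 30 h). Axin2 and Lef1, both on the response side of the pathway, thus differed between the genotypes in opposite directions, and the difference of Lef1 was much the smaller.

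**Figure D2:**
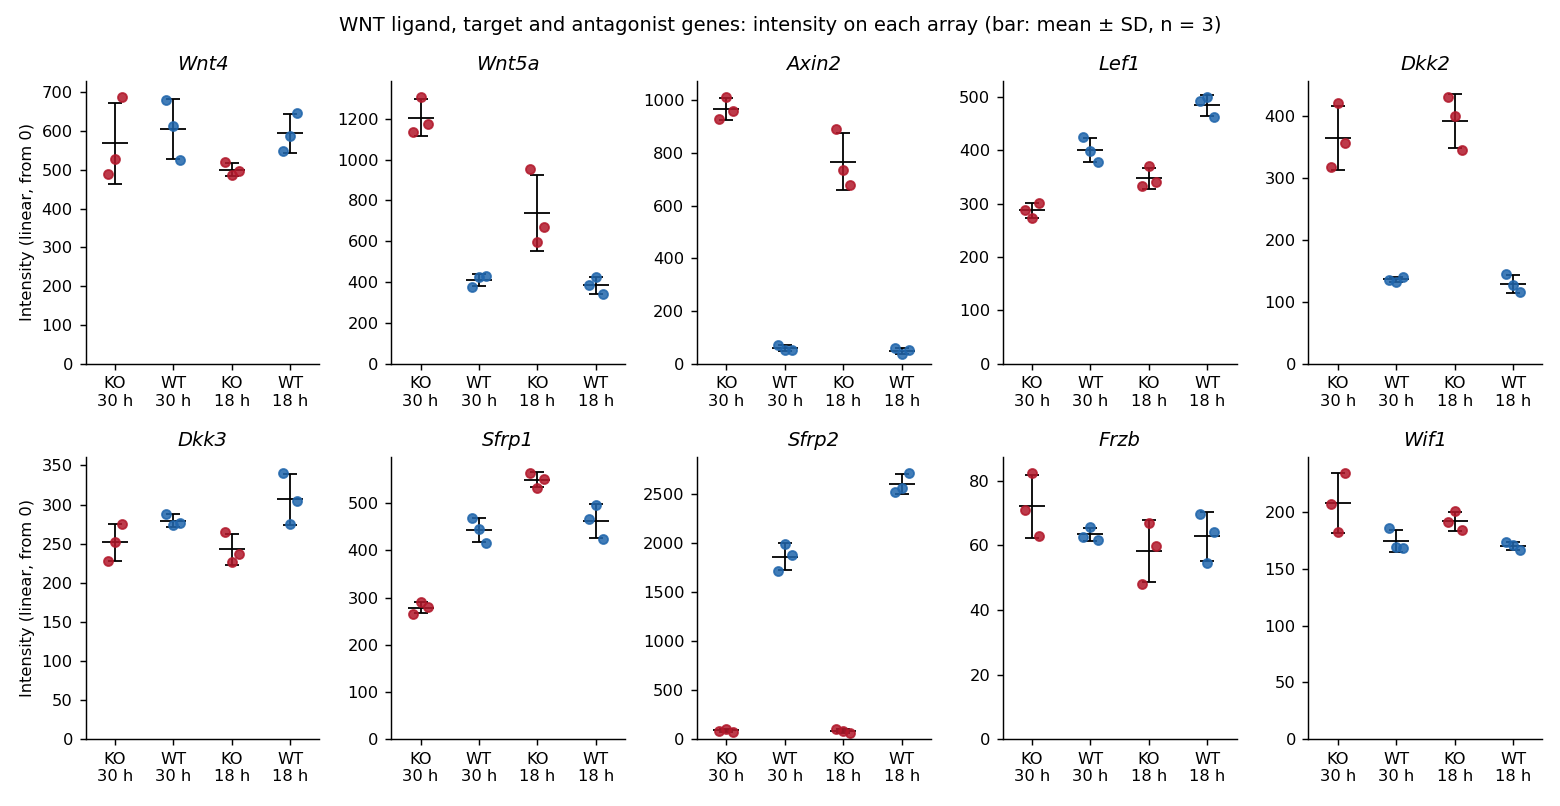
The intensity of each of the 10 genes is plotted on a linear axis from 0, a dot for each array in the order knockout 30 h, wild type 30 h, knockout 18 h and wild type 18 h, with red for knockout and blue for wild type and a bar for the mean ± SD (n = 3). Axin2, Wnt5a and Dkk2 have the red dots above the blue, Sfrp2 and Lef1 have them below, and in Sfrp1 the red dots lie below the blue at 30 h and above them at 18 h.

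Of the ligands, Wnt5a, which signals mostly without beta-catenin and is known for its role in outgrowth of the limbs, was the one that differed. At 18 h it had 951, 596 and 669.7 in knockout, against 384, 425 and 344 in wild type. At 30 h it had 1133, 1306 and 1174 in knockout, against 378, 423 and 428 in wild type. The knockout arrays were all above the wild-type arrays, and replicate 1 of knockout at 18 h stood above the other 2 knockout arrays of that time, toward the 30 h values. The log2 fold change was 0.89 (SE 0.13, adjusted p = 1.89e-05) at 18 h and 1.52 (SE 0.13, adjusted p = 3.06e-08) at 30 h. Without that array the 18 h value was 0.70 (adjusted p = 2.25e-05).

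Wnt4, a ligand known for its part in kidney and gonad development, averaged 501 ± 16.8 in knockout and 594 ± 49.8 in wild type at 18 h (SD, n = 3 each). The arrays did not overlap, but the log2 fold change of -0.24 was not called (95% interval -0.49 to 0.01, adjusted p = 0.123). At 30 h it averaged 569 ± 105 in knockout and 606 ± 77.4 in wild type (SD, n = 3 each), with overlapping arrays and a log2 fold change of -0.10 (95% interval -0.35 to 0.16, adjusted p = 0.589). Wnt4 was the only one of the 10 genes with a second probe set, and its levels were lower and its differences of the opposite sign. That probe set averaged 176 ± 15.5 in knockout and 159.7 ± 9.74 in wild type at 18 h, and 216 ± 18.1 in knockout and 168 ± 27.3 in wild type at 30 h (SD, n = 3 each). Its log2 differences were 0.13 and 0.35, so no direction is given for Wnt4.

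The antagonists held both the largest fall and one of the larger rises of the 10 genes. Sfrp2, which carries a Frizzled-like domain that binds WNT ligands, had 102, 86.9 and 63.8 in knockout at 18 h, against 2518, 2553 and 2712 in wild type. At 30 h it had 87.8, 108 and 80.2 in knockout, against 1712, 1984 and 1879.7 in wild type. All knockout arrays lay under the dim threshold, and the groups were far apart. The log2 fold change was -4.72 (SE 0.13, adjusted p = 1.25e-15) at 18 h and -4.12 (SE 0.13, adjusted p = 8.68e-15) at 30 h. Only 82 and 110 of the 19938 genes had a lower value at these times. In these bulk samples fewer cells that express a gene and less of its RNA in each cell cannot be told apart, which holds for every difference given here.

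Sfrp1, a close relative of Sfrp2, behaved otherwise. At 18 h it had 564, 532 and 551 in knockout, against 466, 495 and 424 in wild type, and at 30 h 266, 291 and 279.6 in knockout, against 468, 446 and 415 in wild type. The genotypes did not overlap at either time, with knockout the higher at 18 h and the lower at 30 h. The log2 fold change was 0.24 (SE 0.088, adjusted p = 0.0291) at 18 h and -0.64 (SE 0.088, adjusted p = 9.01e-06) at 30 h. The 18 h call was lost when wild-type replicate 1 (0.25, adjusted p = 0.0567) or 3 (0.19, adjusted p = 0.134) of that time was left out, or knockout replicate 1 (0.23, adjusted p = 0.065) or 3 (0.24, adjusted p = 0.0699), and in a fit of the 18 h arrays alone (adjusted p = 0.0512).

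Dkk2, a Dickkopf protein that binds the LRP co-receptors, had 431, 401 and 345 in knockout at 18 h, against 145, 127 and 116 in wild type. The 30 h arrays had 318, 421 and 356 in knockout, against 136, 132 and 141 in wild type. The lowest knockout array of each time was more than 100 units above the highest wild-type array, and all wild-type arrays were under the dim threshold. Dkk2 was higher in knockout by a log2 fold change of 1.49 (SE 0.11, adjusted p = 3.41e-09) at 18 h and 1.31 (SE 0.11, adjusted p = 2.43e-08) at 30 h. Dkk3, a divergent member of the same family, had 265, 227 and 237 in knockout at 18 h, against 341, 275 and 304 in wild type. These arrays did not overlap, and the log2 fold change was -0.32 (SE 0.10, adjusted p = 0.0152). The call ended without wild-type 18 h replicate 1 (-0.24, adjusted p = 0.0941) or knockout 18 h replicate 2 (-0.27, adjusted p = 0.0719). At 30 h the arrays of Dkk3 overlapped, with 252 ± 23.6 in knockout and 279 ± 8.09 in wild type (SD, n = 3 each), and the log2 fold change of -0.14 was not called (95% interval -0.36 to 0.07, adjusted p = 0.305).

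Frzb, an SFRP family member known from cartilage, was the only one of the 10 genes that was dim over all arrays. It averaged 58.3 ± 9.63 in knockout and 62.8 ± 7.65 in wild type at 18 h, and 72.1 ± 9.78 in knockout and 63.4 ± 2.11 in wild type at 30 h (SD, n = 3 each). Its log2 fold changes were -0.09 (95% interval -0.35 to 0.17, adjusted p = 0.627) and 0.14 (95% interval -0.12 to 0.41, adjusted p = 0.415). Wif1, which binds WNT ligands through its own WIF domain, lay near the dim threshold, with 192 ± 8.22 in knockout and 169.9 ± 3.80 in wild type at 18 h and 208 ± 26.2 in knockout and 174 ± 10.0 in wild type at 30 h (SD, n = 3 each). Its log2 fold change was 0.16 at 18 h (95% interval -0.05 to 0.37, adjusted p = 0.221), where the arrays did not overlap, and 0.23 at 30 h (95% interval 0.02 to 0.44, adjusted p = 0.0777), where they did. The 30 h value passed, at 0.31 (adjusted p = 0.026), without knockout 30 h replicate 2. The files hold no detection call, so it cannot be said whether Frzb and Wif1 were above background.

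Promoter sequences are shown for 4 of the genes, 2 that were higher in knockout (Axin2 and Dkk2), 1 that was lower (Sfrp2) and 1 that was not called (Wnt4), because MLL1 carries a CXXC domain that binds unmethylated CG dinucleotides. They come from RefSeq, build GRCm38.p6, which held a promoter for 7 of the 10 genes, and run 5′ to 3′ from 250 bases before to 50 bases after the annotated start. Capitals mark CG dinucleotides.
Axin2, chr11:108920099-108920398, plus strand: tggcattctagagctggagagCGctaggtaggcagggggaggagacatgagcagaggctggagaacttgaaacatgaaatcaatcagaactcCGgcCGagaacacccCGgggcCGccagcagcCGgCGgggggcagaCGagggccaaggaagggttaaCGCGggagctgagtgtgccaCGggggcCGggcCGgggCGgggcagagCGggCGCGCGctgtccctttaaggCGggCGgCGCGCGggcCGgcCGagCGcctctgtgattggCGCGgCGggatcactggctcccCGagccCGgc
Dkk2, chr3:132085042-132085341, plus strand: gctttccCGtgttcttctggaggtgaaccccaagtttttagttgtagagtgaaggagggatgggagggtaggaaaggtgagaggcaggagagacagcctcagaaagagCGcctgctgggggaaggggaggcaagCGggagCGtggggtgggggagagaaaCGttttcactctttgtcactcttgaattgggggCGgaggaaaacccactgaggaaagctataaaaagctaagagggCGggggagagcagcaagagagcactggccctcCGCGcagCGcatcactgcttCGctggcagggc
Sfrp2, chr3:83766071-83766370, plus strand: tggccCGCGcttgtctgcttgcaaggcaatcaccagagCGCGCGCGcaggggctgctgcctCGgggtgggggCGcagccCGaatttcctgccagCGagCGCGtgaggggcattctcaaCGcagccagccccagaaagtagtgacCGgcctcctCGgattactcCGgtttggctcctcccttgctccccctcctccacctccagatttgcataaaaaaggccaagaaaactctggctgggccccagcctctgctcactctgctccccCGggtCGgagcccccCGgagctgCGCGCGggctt
Wnt4, chr4:137277385-137277684, plus strand: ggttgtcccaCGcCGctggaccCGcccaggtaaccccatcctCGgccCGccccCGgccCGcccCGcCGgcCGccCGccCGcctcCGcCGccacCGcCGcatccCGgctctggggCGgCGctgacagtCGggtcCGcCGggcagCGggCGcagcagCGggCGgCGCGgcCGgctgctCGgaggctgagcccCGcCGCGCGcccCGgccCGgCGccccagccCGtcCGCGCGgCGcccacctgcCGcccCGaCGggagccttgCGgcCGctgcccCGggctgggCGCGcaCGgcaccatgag
The Axin2 window holds 31 CG dinucleotides, the Dkk2 window 11, the Sfrp2 window 22 and the Wnt4 window 51, beside a median of 7 and an upper quartile of 20 over 32851 windows of the same length. All 4 of these windows were above the median, as were those of Frzb (20) and Wif1 (25), which were not called between the genotypes. Whether the CG count goes with the genotype difference was not tested. The 4 windows of Lef1, which was lower in knockout, held 18, 21, 8 and 5, the last of them below the median. The TCF/LEF core CTTTGAT, read on both strands, was in none of the 10 windows of the 7 genes, where 3.73% of all windows held it, and the Axin2 window was no exception. The E-box CACGTG, the motif through which the clock activators bind DNA, was in the window of Wif1 and in 1 of 4 windows of Lef1, where 7.15% of all windows held it. A motif missing from such a window says only that these letters are not in it.

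Between the times, Wnt5a was higher and Sfrp1 and Lef1 lower at 30 h than at 18 h in knockout, and none of the 10 genes was called in wild type. In knockout 1 gene was called higher and 2 lower at 30 h, where 27.3% of all genes were called, 14.4% higher and 12.9% lower. In wild type limma called 0 of the 10 genes, where 2.35% of all genes were called, 1.4% higher and 0.948% lower. At an unadjusted p under 0.05 there were 2, Sfrp2 and Lef1, both with lower values at 30 h. The share of all genes under that unadjusted threshold is not given here. The 2.35% rests on adjusted p, so the 2 genes cannot be set beside it and no excess can be read from them. The arrays of the 2 times did not overlap for 2 genes higher and 2 lower in knockout, where 35.8% of all genes did not, 18.6% higher and 17.2% lower. In wild type they did not overlap for 0 genes higher and 2 lower, where 21.8% of all genes did not, 9.92% higher and 11.9% lower. The change with time differed between the genotypes for 3 genes, 2 with a value above 0 and 1 below, where 13.4% of all genes were called, 6.62% above and 6.8% below. That split moved with the scaling, to 664 genes above and 1720 below with array medians set equal and 951 above and 1699 below under cyclic loess, and in wild type the calls with time were 316 higher and 83 lower with medians set equal. These comparisons share arrays with those between the genotypes, so the 2 sets are not independent.

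In knockout Wnt5a averaged 1204 ± 90.4 for 30 h and 739 ± 187 for 18 h (SD, n = 3 each), a rise of 0.72 on the log2 scale (SE 0.13, adjusted p = 0.000534). In wild type it averaged 409.8 ± 28.0 on the 30 h arrays and 384 ± 40.8 on the 18 h arrays (SD, n = 3 each), a log2 fold change of 0.09 (95% interval -0.19 to 0.37, adjusted p = 0.841). The knockout arrays of the 2 times did not overlap and the wild-type arrays did. The time effect was larger in knockout than in wild type by 0.63 (SE 0.19, adjusted p = 0.036). That call ended when any 1 of 9 arrays was left out, with values of 0.49 to 0.66 and adjusted p of 0.0561 to 0.113, and held at 0.82 (adjusted p = 0.000457) without knockout 18 h replicate 1, the array that stood apart. The 9 were wild-type 18 h replicates 1 and 2, all of wild type at 30 h, knockout 18 h replicates 2 and 3 and knockout 30 h replicates 2 and 3.

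Sfrp1 averaged 279 ± 12.4 on the 30 h arrays and 549 ± 15.9 on the 18 h arrays in knockout (SD, n = 3 each), and fell by 0.94 on the log2 scale (SE 0.088, adjusted p = 9.83e-07). In wild type it averaged 443 ± 26.3 on the 30 h arrays and 462 ± 36.0 on the 18 h arrays (SD, n = 3 each), with overlapping arrays and a log2 fold change of -0.06 (95% interval -0.24 to 0.13, adjusted p = 0.856). The difference of the time effects, knockout minus wild type, was -0.88 (SE 0.12, adjusted p = 0.000264), and it was between -0.93 and -0.82 when each array was left out in turn. The 4 groups of Sfrp1 therefore ran, from the highest mean, knockout 18 h, wild type 18 h, wild type 30 h and knockout 30 h, of which the 2 wild-type groups did not differ beyond their spread.

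Lef1 averaged 288 ± 13.7 on the 30 h arrays and 348 ± 19.5 on the 18 h arrays in knockout, and 400.4 ± 22.7 on the 30 h arrays and 485 ± 20.1 on the 18 h arrays in wild type (SD, n = 3 each). The 2 times did not overlap in either genotype. Its log2 fold change was -0.26 (SE 0.086, adjusted p = 0.0308) in knockout and -0.27 (SE 0.086, adjusted p = 0.125) in wild type, and the effects differed by 0.01 (95% interval -0.25 to 0.26, adjusted p = 0.988). Leaving out 1 knockout array could end the call in knockout (18 h replicates 2 and 3, at -0.22 and -0.28, and 30 h replicates 1 and 2, at -0.26 and -0.23), with adjusted p of 0.0606 to 0.146.

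Sfrp2 averaged 1859 ± 138 on the 30 h arrays and 2594 ± 103 on the 18 h arrays in wild type (SD, n = 3 each), with no overlap and a log2 fold change of -0.48 that just missed the threshold (SE 0.13, adjusted p = 0.0547). In knockout it averaged 91.9 ± 14.1 on the 30 h arrays and 84.2 ± 19.1 on the 18 h arrays (SD, n = 3 each), a log2 fold change of 0.12 (95% interval -0.15 to 0.38, adjusted p = 0.6). The difference of the time effects was 0.60 (SE 0.18, adjusted p = 0.0337), and it ended when any 1 of 8 arrays was left out, with values of 0.44 to 0.62 and adjusted p of 0.0543 to 0.101. These were all of wild type at 18 h, wild-type 30 h replicates 1 and 3, knockout 18 h replicates 2 and 3 and knockout 30 h replicate 2. The wild-type value passed at the same size without knockout 18 h replicate 1 (adjusted p = 0.0189) or 3 (adjusted p = 0.0195).

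Axin2 averaged 967 ± 41.9 on the 30 h arrays and 767 ± 109.9 on the 18 h arrays in knockout, and 59.4 ± 11.2 on the 30 h arrays and 49.9 ± 11.6 on the 18 h arrays in wild type (SD, n = 3 each). The knockout arrays of the 2 times did not overlap, but its log2 fold change of 0.34 was not called (95% interval 0.05 to 0.62, adjusted p = 0.0792). It passed, at 0.45 (adjusted p = 0.0251), without knockout 18 h replicate 1, and at 0.34 (adjusted p = 0.0454) without wild-type 18 h replicate 2. It also passed with an offset of 64 (0.32, adjusted p = 0.0258) and with only the arrays compared (adjusted p = 0.0388). In wild type the value was 0.20 (adjusted p = 0.572). Wnt4, Dkk2, Dkk3, Frzb and Wif1 had values between -0.10 and 0.25 in knockout and between -0.12 and 0.07 in wild type, none of them called.

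**Figure D3:**
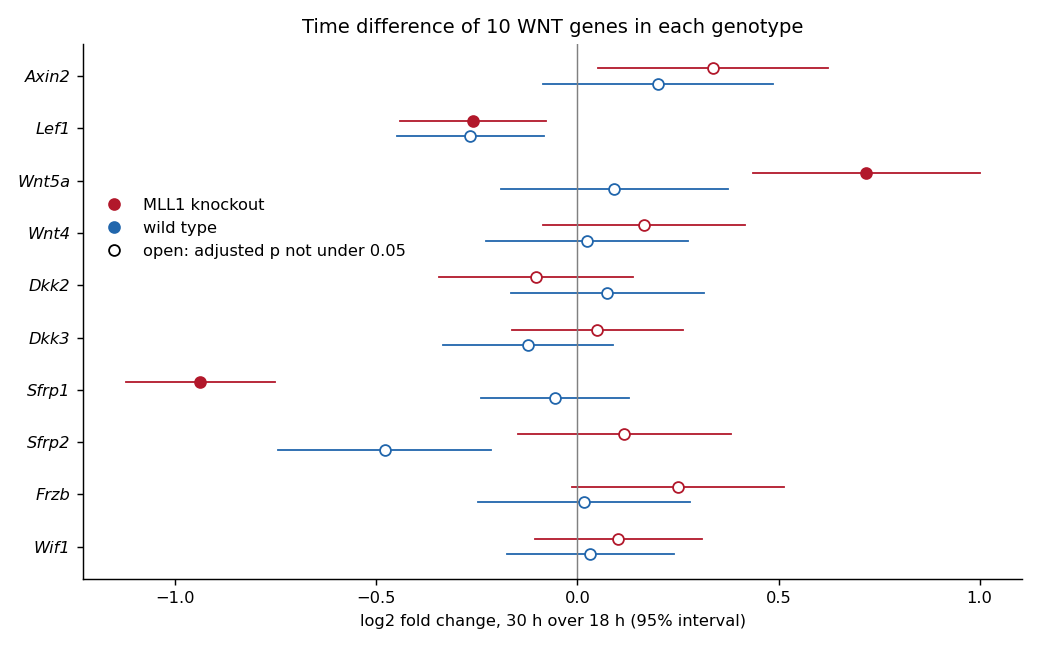
The log2 fold change of 30 h over 18 h is plotted for each of the 10 genes, with red for MLL1 knockout, blue for wild type, lines for the 95% interval and open symbols where the adjusted p was not under 0.05. Only Wnt5a at 0.72, Lef1 at -0.26 and Sfrp1 at -0.94 are filled, all in knockout.

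The 10 genes were set beside a wider list of WNT pathway genes grouped by role, of which 107 were measured and 1 more was not analysed here. At 18 h 36 of the 107 were called higher in knockout and 26 lower, 57.9% in all, where 45.5% of all genes were called, 20.1% higher and 25.4% lower. At 30 h 32 were higher and 25 lower, 53.3% in all, where 39.2% of all genes were called, 18.2% higher and 21.0% lower. Without the 10 genes the counts over the other 97 were 32 higher and 23 lower at 18 h and 29 higher and 22 lower at 30 h. The shares over all genes include dim genes. Of the 107, 17 were dim. By role, 6 of 19 ligands, 4 of 14 secreted antagonists, 1 of 21 receptors and 0 of 12 transduction genes were dim. With dim genes filtered out, 8384 of 13956 genes were called at 18 h and 7382 at 30 h, beside 60 and 56 pathway genes. No excess or deficit of a list is thus read from its share. The median log2 fold change of the 107 was 0.04 at 18 h and 0.06 at 30 h. The 14 feedback and target genes, Axin2 among them, had medians of 0.70 and 0.66, with 9 higher and 1 lower at 18 h (71.4% called, against 45.5% of all genes) and 8 higher and 1 lower at 30 h (64.3%, against 39.2%). Without Axin2 the medians were 0.48 and 0.52, with 8 higher and 1 lower at 18 h and 7 higher and 1 lower at 30 h. The lists were chosen with earlier results of these data known, so these counts are no independent evidence on the pathway. The 12 nuclear factors, Lef1 among them, had medians of -0.39 and -0.12, with 3 higher and 7 lower at 18 h (83.3% called) and 3 higher and 5 lower at 30 h (66.7%). Without Lef1 the medians were -0.32 and -0.08, with 6 lower at 18 h and 4 at 30 h.

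Among the targets, Ccn4, a matricellular protein, had log2 fold changes of 1.42 at 18 h and 1.70 at 30 h, the pathway inhibitor Nkd2 2.00 and 1.33, and Bambi, a pseudoreceptor of the TGF-beta family, 1.60 and 1.27. All wild-type arrays of Nkd2 were under the dim threshold, and those of 18 h lay far apart (144.5, 60.6 and 39.1). The size of its 18 h value is thus uncertain. The growth-related transcription factor genes Fosl1 and Myc were lower at 1 time only, Fosl1 at 18 h (-0.29) and Myc at 30 h (-0.36). At the other time the knockout mean was the higher. Fosl1 averaged 3845 ± 223 in knockout and 3496 ± 109 in wild type at 30 h (SD, n = 3 each). Myc averaged 2398 ± 296 in knockout and 2207 ± 185 in wild type at 18 h (SD, n = 3 each). The Fosl1 call ended without replicate 3 of knockout at 18 h (-0.21) and with array medians set equal (-0.23). Among the other nuclear factors, the relatives of Lef1, Tcf7l1 and Tcf7l2, were lower at each time, Tcf7l1 at -0.58 and -0.61 and Tcf7l2 at -0.69 and -0.57. The corepressor gene Tle2 had -1.10 at 18 h and Tle4 -0.62 at 30 h, while Tle1 was higher at 0.62 and 0.65. Tle3 was higher at 0.30 and 0.56, the coactivator gene Bcl9 was higher at 0.35 and 0.67, and Pygo1 was lower at -0.71 at 18 h. Tle2, Tle4 and Pygo1, each given at a single time, had lower knockout means at the other time as well. The nuclear factors other than Lef1 were thus found on both sides.

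Of the 19 ligands, Wnt5a included, 4 were higher and 0 lower at each time, and 21.1% called is under the share over all genes. Wnt7b had log2 fold changes of 1.89 and 1.82, with 374 ± 15.9 in knockout and 89.8 ± 8.02 in wild type at 18 h (SD, n = 3 each). Wnt9a was higher at 18 h (0.58) and Wnt5b at 30 h (0.42). Wnt11 was called at 18 h (0.30), a call that ended without wild-type 18 h replicate 1 (0.18) or knockout 18 h replicate 1 (0.29), 2 (0.31) or 3 (0.28). Of the genes that help ligands leave the cell, Porcn, which acylates WNT proteins, was higher at 1.42 and 0.55, and the carrier gene Wls was lower at -0.44 and -0.22. Without 1 of wild-type replicates 1 and 2 (-0.20 and -0.19) or knockout replicate 1 (-0.19) of that time, or without the intensity trend (adjusted p = 0.0576), Wls was no longer called at 30 h.

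R-spondins strengthen WNT signals by keeping Frizzled receptors at the cell surface. Rspo2 had 19.3, 31.7 and 41.3 in knockout at 18 h, against 5178, 5576 and 5139 in wild type, and 38.6, 26.5 and 43.1 in knockout at 30 h, against 4319, 4777 and 4627 in wild type. The log2 fold changes of Rspo2, -6.85 (SE 0.14, adjusted p = 7.5e-17) and -6.47 (SE 0.14, adjusted p = 1.64e-16), rest on knockout values near the added 16, so their size depends on that offset and is not ranked against Sfrp2. Rspo3, a dim gene named here after its values were seen, was higher in knockout, with 442 ± 7.32 in knockout and 64.9 ± 17.8 in wild type at 18 h and 389.9 ± 30.6 in knockout and 62.9 ± 9.86 in wild type at 30 h (SD, n = 3 each).

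Of 21 receptor genes, 6 were higher and 6 lower at 18 h, 57.1% called against 45.5% of all genes, and 6 higher and 7 lower at 30 h, 61.9% against 39.2%. Ror2, a receptor for the Wnt5a protein, was higher at 1.04 and 1.01. Fzd3 was higher at 1.40 and 1.88, Fzd6 had 1.96 at 30 h, and Kremen1, a Dickkopf receptor gene, was higher at 0.89 at 18 h. Fzd1 was lower at -1.30 and -1.25, Fzd2 at -1.10 at 18 h, Fzd4 at -0.90 and Fzd5 at -0.85 at 30 h, and the co-receptor gene Ptk7 at -0.56 at 18 h. Receptor genes given at a single time had means in the same direction at the other, though the Fzd6 arrays overlapped at 18 h.

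Of 14 secreted antagonists, the 6 described here included, 2 were higher and 3 lower at each time, 35.7% called, under the 45.5% and 39.2% of all genes. Sfrp4 was lower at -1.43 at 18 h and -1.96 at 30 h, the same direction as Sfrp2. Sost was called higher at 30 h (0.29), and that call ended without any 1 of wild-type 18 h replicates 1 to 3, wild-type 30 h replicates 1 and 3, knockout 18 h replicates 2 and 3 and knockout 30 h replicates 2 and 3 (0.20 to 0.33), with a replicate block (adjusted p = 0.0692) and with only the arrays compared (adjusted p = 0.0913).

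Of 12 genes of intracellular transduction, 4 were higher and 5 lower at 18 h, 9 called in all against 45.5% of all genes, and 3 higher and 5 lower at 30 h, 66.7% against 39.2%. Ctnnb1, which encodes beta-catenin, was higher at 0.26 (SE 0.053, adjusted p = 0.000494) and 0.46 (SE 0.053, adjusted p = 1.03e-06). The kinase genes Gsk3a and Csnk1a1 were higher at 0.46 and 0.33 at 18 h and were called higher at 30 h too. Dvl1, which relays the signal of Frizzled receptors, was higher at 0.58 at 18 h. Its relative Dvl3 was lower at -1.19, the APC relative Apc2 at -1.19 and Btrc, a ubiquitin ligase subunit for beta-catenin, at -0.50. At 30 h Dvl3 was lower at -1.01, Apc2 at -0.65 and Amer1 at -0.51. Dvl1, Btrc and Amer1, each given at a single time, had means in the same direction at the other. Of 9 planar cell polarity genes, 6 were higher and 2 lower at 18 h, 88.9% called against 45.5% of all genes, and 4 higher and 2 lower at 30 h, 66.7% against 39.2%. Celsr1 was higher at 2.11 and 1.33 and Prickle1 at 1.44 and 1.28, Celsr2 at 0.92 at 18 h and Vangl2 at 1.04 at 30 h. Daam2 was lower at -2.21 and -2.16, Vangl1 at -0.41 at 18 h and Prickle2 at -0.48 at 30 h. At 30 h the knockout mean of Vangl1 was the higher, 1490 ± 36.6 against 1317 ± 15.3 in wild type (SD, n = 3 each). The means of Celsr2, Vangl2 and Prickle2 kept their direction at the time not given, though the Prickle2 arrays overlapped there.

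**Figure D4:**
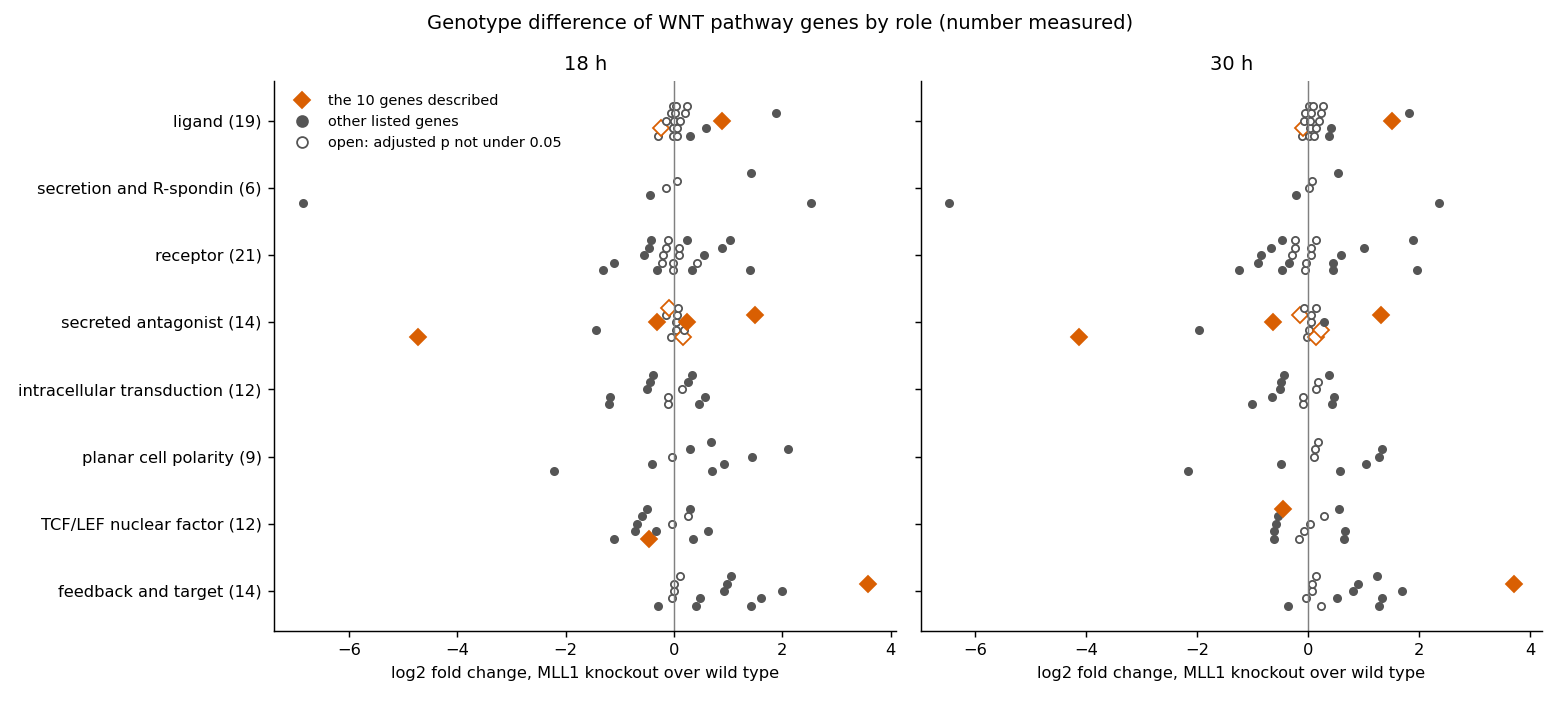
Each symbol is the log2 fold change of MLL1 knockout over wild type of 1 measured WNT pathway gene, by role, at 18 h (left) and 30 h (right), with orange diamonds for the 10 genes described, grey circles for the others and open symbols where the adjusted p was not under 0.05. Axin2 lies farthest right in both panels, and Rspo2, at -6.85 and -6.47, and Sfrp2 lie at the far left.

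In wild type over time, 5 of the 107 genes were called, 2 higher and 3 lower at 30 h, 4.67% against 2.35% of all genes. With array medians set equal there were 2 higher and 1 lower. The rises were the cell cycle gene Ccnd1 at 0.54 and Myc at 0.50, and the 2 largest falls Tle2 at -0.57 and Fzd4 at -0.37, beside Tle3. Leaving out wild-type arrays ended the Myc call (18 h replicate 1, at 0.43, or 30 h replicate 3, at 0.42) and the Tle2 call (18 h replicate 2, at -0.41, or 30 h replicates 1 and 3, at -0.48 and -0.58). Fzd4 was no longer called without 1 of wild-type 18 h replicates 1 and 2, any wild-type array of 30 h or knockout 30 h replicate 2 (-0.40 to -0.31), with array medians set equal (-0.30) or without the intensity trend (adjusted p = 0.0592). With time in knockout 15 rose and 17 fell at 30 h relative to 18 h, 29.9%, close to the 27.3% of all genes, the largest being Fzd6 at 1.45 and Fzd2 at 0.77, and Porcn at -1.06 and Sfrp4 at -0.99. As in Wnt5a, knockout 18 h replicate 1 lay toward the 30 h values in Fzd6, with 822 against 425 and 373 on the other 18 h arrays, and in Fzd2, with 1118 against 666 and 695. Without it their values were 1.79 and 1.01. That array stood toward the 30 h values in further listed genes as well, among them Apcdd1, Bcl9l, Ccn4 and Vangl1, though not in Prickle2.

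Markers of other cell types moved with the genotype beside these genes, and their part in the differences was not tested. Over all genes 45.5% were called at 18 h and 39.2% at 30 h, the shares to set beside the marker counts. Of 5 neural and glial markers 3, Nes, Map2 and Tubb3, were higher in knockout at each time, while Sox10 and Gfap were not called at either. At 18 h the summed intensity of the 5 ran from 6060 to 6662 in knockout and from 938 to 999 in wild type. At 30 h it ran from 5961 to 6875 in knockout and from 864 to 1142 in wild type. All 4 adipocyte markers were lower at each time, with a summed intensity of 761 to 939.97 in knockout and 11597 to 11915 in wild type at 18 h, and 669 to 764 in knockout and 10267 to 10691 in wild type at 30 h. Of 4 cartilage and bone markers 1, Sox9, was higher at each time, with sums of 2619 to 2922 in knockout and 1620.3 to 1726 in wild type at 18 h, and 3377 to 3599.8 in knockout and 1503 to 1658 in wild type at 30 h. Of 4 smooth muscle markers 2, Acta2 and the dim Cnn1, were higher at 18 h and 1, Cnn1, at 30 h. The sums, mostly Acta2, were 3923 to 5206 in knockout and 1495 to 1900.4 in wild type at 18 h. At 30 h they were 5956 to 6665 in knockout and 5183 to 6499.5 in wild type. Acta2 was not called between the genotypes at 30 h (0.18, adjusted p = 0.315). In wild type it was higher at 30 h than at 18 h by 2.14 (adjusted p = 9.1e-08). Of 5 macrophage and blood markers 1, Cd68, was higher at 18 h, with sums of 2093 to 3732 in knockout and 1875 to 1939 in wild type, while the defining marker Ptprc was dim and had 161 ± 14.6 in knockout and 163 ± 6.98 in wild type (SD, n = 3 each). Of 5 epithelial markers 1, Epcam, was higher at 18 h, with sums of 1193 to 1234 in knockout and 925 to 1156 in wild type. Of 4 endothelial markers, all dim, 1, Kdr, was higher at each time, with 18 h sums of 579 to 711 in knockout and 411 to 509.8 in wild type. The defining markers Epcam and Pecam1 were dim, and no marker was at 0.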

How the data were processed

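Total RNA of 12 samples was hybridised to Affymetrix arrays. The authors deposited linear intensity values, 1 per probe set and array. The submitters' processing notes name Affymetrix Expression Console (1.1) with PLIER (2.0), and how arrays were normalized to each other is not stated in them. Of 35557 probe sets, 21789 had 1 gene symbol in the platform annotation, 1621 had several and 12147 had none listed. RefSeq names (GRCm38.p6) were found through Entrez numbers for 21698 probe sets with 1 symbol, and together they gave 19938 genes, each with the values of its brightest probe set (highest mean log2 value).

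Groups were taken from the sample titles. Group means of log2(intensity + 16) were fitted with limma (3.58.1, under R 4.3.3) to the 12 arrays together by lmFit, then eBayes with a trend on intensity (8 residual and 9.14 prior degrees of freedom) and no filter on low values. Tests are two-sided, and p-values were adjusted over all genes by the method of Benjamini and Hochberg. The fit was tested on simulated data. Deviations from the group means correlated over a similar range for same-numbered and different-numbered replicates, so numbers were not used as a block. Slide and scan batches were not analysed here.

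The genes and lists were chosen with earlier results of these data known. All 10 genes and Kmt2a were named, and, of the other pathway genes not dim, up to 3 rises and 3 falls per role and genotype comparison and 2 of each per time comparison, called and largest in log2 fold change. The count of CG dinucleotides was added after the files were read. Alternatives were offsets of 1 and 64, a filter at the 30th percentile, 3 scalings, no trend, robust eBayes, a fit to the compared groups only, a gene's probe sets averaged, a replicate block and each array left out.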

Additional observations from a re-analysis of the deposited data

Results flagged for a closer look

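The change from 18 h to 30 h differed between the genotypes in 3 of the 10 genes by limma's test of the difference itself, where 13.4% of all genes were called. Sfrp1 had a value, knockout minus wild type, of -0.88 (adjusted p = 0.000264), Wnt5a of 0.63 (adjusted p = 0.036) and Sfrp2 of 0.60 (adjusted p = 0.0337). Of these, the call of Sfrp1 alone held when each array was left out in turn. Groups of 3 arrays were too small to test for a sample that stands apart.

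The other WNT pathway genes named were picked for large called changes in these same fits, so their calls here are not independent of that choice. Of these genes, the same difference was called above 0 for Fzd6 at 1.53 (adjusted p = 0.00111), Fzd2 at 0.81 (adjusted p = 0.00984), Vangl1 at 0.59 (adjusted p = 0.0162), Tle2 at 0.55 (adjusted p = 0.043), Pygo1 at 0.54 (adjusted p = 0.031), Apc2 at 0.54 (adjusted p = 0.0119), Fzd3 at 0.48 (adjusted p = 0.0459), Fosl1 at 0.43 (adjusted p = 0.0279) and Vangl2 at 0.36 (adjusted p = 0.0455). It was called below 0 for Porcn at -0.87 (adjusted p = 0.00176), Celsr1 at -0.78 (adjusted p = 0.000983), Fzd5 at -0.63 (adjusted p = 0.0056), Fzd4 at -0.58 (adjusted p = 0.00537), Myc at -0.48 (adjusted p = 0.026), Prickle2 at -0.45 (adjusted p = 0.0364), Kremen1 at -0.45 (adjusted p = 0.00756) and Dvl1 at -0.43 (adjusted p = 0.0125). Over all 107 pathway genes there were 13 calls above 0 and 12 below, 23.4% in all, where 13.4% of all genes were called. With array medians set equal there were 4 above and 15 below, where all genes had 664 above and 1720 below. Under cyclic loess there were 6 above and 15 below, where all genes had 951 and 1699. Quantile scaling gave 9 above and 14 below, where all genes had 1104 and 1623. The pathway split thus moved as that of all genes did.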

How the results depend on the processing

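For the 10 genes, 1135 values under 23 alternatives were set beside those reported. Of these, 1087 kept their side of the threshold, 37 were no longer called and 11 were newly called. No called value changed sign, and 24 uncalled values did. For knockout against wild type at 30 h no call of the 10 genes ended, and Wif1 was newly called once. At 18 h the ended calls were those of Sfrp1 and Dkk3.

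The number of the 10 genes called with each array left out was 5 to 7 at 18 h, 6 to 7 at 30 h, 0 to 1 for time in wild type, 2 to 4 for time in knockout and 1 to 3 for the difference of time effects. Over the 107 pathway genes these ranges were 58 to 64, 55 to 60, 1 to 10, 27 to 35 and 14 to 32, and over all genes 8242 to 9301, 6882 to 8265, 129 to 847, 4219 to 6029 and 1731 to 4022. For time in wild type, 1 of the 10 genes, Sfrp2, was called in place of 0 with an offset of 64 (-0.47, adjusted p = 0.0156), the filter at the 30th percentile (adjusted p = 0.0455), robust eBayes (adjusted p = 0.0466) or only the arrays compared (adjusted p = 0.00366). In that comparison 3 pathway genes were called with array medians set equal, 3 without the trend and 10 with only the arrays compared, in place of 5, and over all genes 263 without the trend and 796 with only the arrays compared, in place of 468.

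For the difference of time effects, 1 of the 10 genes, Sfrp1, was called in place of 3 with array medians set equal or under cyclic loess. Wnt5a was at 0.55, 0.54 and 0.56 under quantile, median and cyclic loess scaling (adjusted p = 0.0691, 0.0874 and 0.0707) and missed the threshold without the trend (adjusted p = 0.0553). Sfrp2 was at 0.51 and 0.52 under median and cyclic loess scaling (adjusted p = 0.0995 and 0.0784) and at 0.62 with an offset of 1 (adjusted p = 0.0504). The cause was not tested.

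The deviations of same-numbered replicates from their group means correlated between -0.456 and 0.454. Those of different-numbered replicates correlated between -0.398 and 0.463, so the numbers were not taken to pair the arrays. With the replicate block, 7, 6, 0, 2 and 3 of the 10 genes were called in the 5 comparisons, and the time effect of Lef1 in knockout was at -0.26 (adjusted p = 0.0505). With only the arrays compared its adjusted p was 0.0814. The files give no background level, so what the dim values of Frzb, Axin2 and Dkk2 in wild type and of Sfrp2 and Rspo2 in knockout can show is limited.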
